A study of Mus musculus with 18 samples.

Results

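The comparison described here set gracilis muscle of mice that had received clenbuterol on each of 10 days against gracilis muscle of mice that had received it on 1 day. Its members were the 6 pools labelled 10D clenbuterol or 1D clenbuterol, 3 pools a side (10 D and 24 h below), of the 9 pools in the series, and each was measured on 2 arrays, 12 of the 18 arrays in all. The mice were C57BL/6J males 3 to 5 weeks old. Every mouse of the array experiment was injected intraperitoneally once a day for 10 days and killed 24 h after the last injection. The 10 D mice received clenbuterol at 1 mg/kg each day. The 24 h mice received vehicle for 9 days and clenbuterol at 1 mg/kg on the last day, so both groups were taken at the same interval after a dose and differed in the number of doses before it and in the time since the first one. The vehicle control mice (C) received vehicle throughout, and their 3 pools did not enter the test. Each pool held equal amounts of RNA from 3 mice. The study had assigned whole cages to treatments. Mice for the arrays were chosen so that weight gain and blood urea nitrogen of both treated groups differed most from C. The pools thus represent selected animals and may share cages.

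Clenbuterol is a beta-adrenergic agonist, a class of drugs that in muscle acts through the stimulatory G protein, adenylyl cyclase and cyclic AMP on protein kinase A and the transcription factor CREB. Such agonists enlarge skeletal muscle, and repeated stimulation of adrenergic receptors is known to reduce their responsiveness. A first dose is known to induce early response genes that return towards their resting level as time passes.

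Levels are signals divided by the median signal of their array, so a level of 1 is that of the median probeset (a set of probes for 1 transcript). Differences are log2 of 10 D minus log2 of 24 h, and a negative value means a lower level at 10 D. A probeset was called when its p, from limma and adjusted over both chips, was under 0.1. The words rose and fell are kept for called probesets, and values at an unadjusted p under 0.05 are given as descriptions.

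Array medians ran from 30.8 to 88.4 on MOE430A and from 13.2 to 37.1 on MOE430B. Pool 2 of 24 h and pool 2 of 10 D stood apart on both chips. Across the tested probesets of MOE430A these arrays correlated at 0.921 with each other and at 0.827 to 0.891 with the other 7, which correlated at 0.904 to 0.950 among themselves. On MOE430B the same pools correlated at 0.760 with each other and at 0.746 to 0.776 with the rest, against 0.806 to 0.850 among the rest. The labels name no batch for these pools, and results are given with both pools and, where the call changes, without both. All 12 listed markers of the muscle fibre were tested, and their summed level was 1560 to 2069.5 at 24 h, 1407 to 2299.7 at 10 D and 1893 to 2817 in C, with 0 of the 12 at an unadjusted p under 0.05.

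The sequences below are the 250 bases before the start of 5 genes on which the results turn, from RefSeq on build GRCm38.p6, plus strand. Cdkn1a is shown because it carried the 1 call, Mt1 and Mt2 because these neighbouring genes stood lower together, and Asb15 and Gadd45g because they headed the probesets that stood higher. The windows are chr17:29090729-29090978 (the upstream one of 2 starts listed for Cdkn1a), chr8:94178839-94179088, chr8:94172368-94172617, chr6:24527894-24528143 and chr13:51846425-51846674. Capitals mark in Cdkn1a CATG repeated after 6 bases, the core of a p53 response element (CATGNNNNNNCATG), in Mt1 the CRE core (TGACG, here on the minus strand), in Mt2 a metal response element (TGCGCNC) and in the other genes an E-box (CACGTG).
Cdkn1a: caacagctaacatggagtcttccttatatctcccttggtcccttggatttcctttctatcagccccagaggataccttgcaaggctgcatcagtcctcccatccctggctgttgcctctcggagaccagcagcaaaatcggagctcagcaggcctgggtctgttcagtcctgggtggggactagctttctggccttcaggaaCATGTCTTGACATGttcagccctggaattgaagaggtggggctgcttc
Mt1: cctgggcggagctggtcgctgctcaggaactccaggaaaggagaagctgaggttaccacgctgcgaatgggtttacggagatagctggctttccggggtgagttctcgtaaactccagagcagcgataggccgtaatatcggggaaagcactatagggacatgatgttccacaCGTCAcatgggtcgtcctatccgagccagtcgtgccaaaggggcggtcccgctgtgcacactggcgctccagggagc
Mt2: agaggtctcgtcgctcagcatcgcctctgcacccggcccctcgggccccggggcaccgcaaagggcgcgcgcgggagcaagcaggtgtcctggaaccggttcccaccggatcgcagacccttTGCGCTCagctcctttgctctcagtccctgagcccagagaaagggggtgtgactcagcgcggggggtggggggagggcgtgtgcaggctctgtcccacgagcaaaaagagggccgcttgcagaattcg
Asb15: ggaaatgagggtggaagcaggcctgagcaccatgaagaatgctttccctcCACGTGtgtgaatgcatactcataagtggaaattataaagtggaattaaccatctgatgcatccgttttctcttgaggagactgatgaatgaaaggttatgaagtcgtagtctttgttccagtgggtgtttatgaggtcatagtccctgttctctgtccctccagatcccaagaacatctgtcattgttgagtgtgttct
Gadd45g: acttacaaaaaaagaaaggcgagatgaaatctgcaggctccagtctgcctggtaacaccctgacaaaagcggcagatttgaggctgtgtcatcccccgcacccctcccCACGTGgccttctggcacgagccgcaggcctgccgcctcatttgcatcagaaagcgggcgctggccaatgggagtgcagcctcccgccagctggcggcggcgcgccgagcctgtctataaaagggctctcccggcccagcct

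Windows were found for 10 of the 12 named genes lower at 10 D and for 9 of the 12 named genes higher at 10 D, and both strands were searched. An E-box was present in 0 of the 10 and 2 of the 9, against 6.02% of all 32851 promoter windows of this length. The CRE core was present in 2 and 1, against 17.8%, and a metal response element in 2 and 3, against 12.5%. The full CRE (TGACGTCA), present in 1.55% of all windows, and the CArG box bound by SRF, present in 1.47%, were in none of them. The paired CATG, searched for after the Cdkn1a sequence had been seen, was in 1 of the 10 lower genes and in 0.49% of all windows. A match is a run of letters and not a bound site. Each window depends on the start listed for its gene, and sites elsewhere were not counted. The Mt1 window held no metal response element, which does not show that the gene lacks one.

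Of 33752 probesets tested, 1 was called (0.00296%), a probeset of Cdkn1a, which fell. Cdkn1a encodes p21, an inhibitor of cyclin-dependent kinases that accompanies withdrawal of myoblasts from the cell cycle. Its level was 40.8, 33.8 and 47.0 in the 24 h pools and 3.29, 4.76 and 3.82 in the 10 D pools. The groups did not overlap, and the lowest 24 h pool stood well above the highest 10 D pool. The log2 difference was -3.36 with a standard error of 0.256 (limma, adjusted p = 0.0406), so the level after 1 dose was 10.3-fold that after 10. The C pools stood at 1.51, 2.04 and 1.54, below each 10 D pool. A second Cdkn1a probeset had mean levels of 11.9 at 24 h and 1.14 at 10 D, a log2 difference of -3.69 (standard error 0.706).

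The next smallest adjusted p was 0.365, and no other probeset passed the test in either direction. At an unadjusted p under 0.05 stood 616 probesets with a higher level at 10 D (1.83%) and 747 with a lower level (2.21%), 1363 in all or 4.04% of those tested. Without both pools 2 these numbers were 1209 and 1016, and the higher side held more. It also held more without pool 2 of 10 D (1034 and 926), without pool 1 of 24 h (639 and 538) and without pool 3 of 24 h (584 and 510). The lower side held more without pool 2 of 24 h (679 and 731), pool 1 of 10 D (563 and 1010) or pool 3 of 10 D (354 and 592). All 10 D pools stood above all 24 h pools for 1398 probesets (4.14%) and below them for 1748 (5.18%). The mean of the C pools lay nearer to 10 D than to 24 h for 439 of the 616 higher probesets (71.3%), for 558 of the 747 lower ones (74.7%) and for 56.2% of all tested. In the plot of all tested probesets the named ones lie at the edges, a place that follows from their choice by call or smallest p. The same choice favours pools that do not overlap, so the separation of named probesets reported below is no separate evidence.

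**Figure D1:**
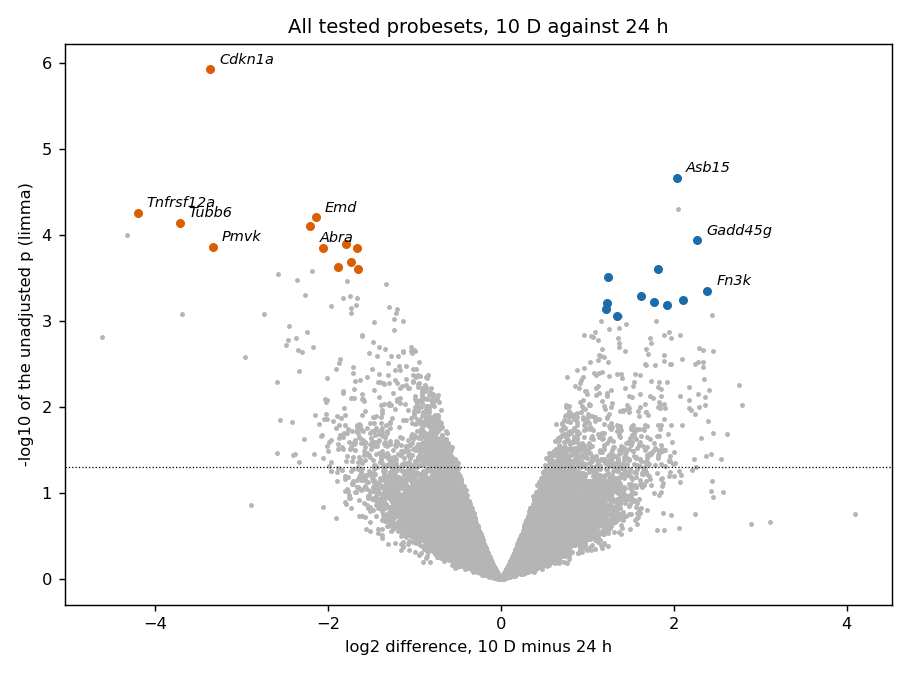
Log2 difference of 10 D and 24 h (horizontal axis) and -log10 of the unadjusted p from limma (vertical axis) for all 33752 tested probesets, with the 12 named in each direction in orange (lower) and blue (higher) and a dotted line at the 0.05 level. Cdkn1a, at a log2 difference of -3.36, has the smallest p and is the 1 called probeset.

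The number called differed between fits. With the C pools in the model, which adds residual degrees of freedom, 17 probesets were called, 5 higher and 12 lower at 10 D. Those with a gene name were Cdkn1a, Tnfrsf12a (2 probesets), Abra, Emd, Cxcl12, Mt1, Pmvk, Tubb6, Klhl30 and 2410006H16Rik on the lower side and Asb15, Gadd45g, Mfap3l and Fn3k on the higher side. Without pool 2 of both groups, 2 pools a side, 12 were called, and beside Cdkn1a (log2 difference -3.63, adjusted p = 0.00517) these were Tnfrsf12a (2 probesets), Lcn2, Pmvk, Tubb6, Lgals3, Ankrd2 and Nr4a3 on the lower side and Asb15, Gadd45g and Abcd2 on the higher side. In that fit Lgals3 gave -2.33 (limma adjusted p = 0.0557), Ankrd2 -2.28 (0.0717), Nr4a3 -2.94 (0.0826) and Abcd2 2.33 (0.0468). Without any 1 of the other 4 pools (pools 1 and 3 of each group) the count was 0.

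The remaining genes on the lower side were led by a receptor of the TNF family. Tnfrsf12a, the receptor of the cytokine TWEAK that is induced in damaged or growing muscle, stood at 29.1, 19.7 and 25.9 at 24 h and at 2.09, 0.527 and 2.18 at 10 D. All 24 h pools were far above all 10 D pools, and the low value at 10 D was that of pool 2. The log2 difference was -4.20 (standard error 0.538, limma adjusted p = 0.370), and without both pools 2 it was -3.69 (adjusted p = 0.00517). The C pools stood between 0.651 and 0.718.

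Tubb6, a beta tubulin, stood at 14.1, 5.71 and 9.66 at 24 h and at 1.09, 0.357 and 0.884 at 10 D. The groups did not overlap, and pool 2 was the lowest of each group. The log2 difference was -3.71 (standard error 0.493, limma adjusted p = 0.370) and -3.57 without both pools 2 (adjusted p = 0.0212). Another, brighter probeset of the gene differed by -0.03.

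Pmvk, phosphomevalonate kinase of cholesterol synthesis, stood at 19.8, 6.23 and 23.8 at 24 h and at 1.48, 1.26 and 1.55 at 10 D, where the C pools stood at 1.44, 1.87 and 1.23. Pool 2 was the lowest of the 24 h pools and still above all 10 D pools. The log2 difference was -3.33 (standard error 0.486, limma adjusted p = 0.370) and -3.84 without both pools 2 (adjusted p = 0.00517).

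Emd encodes emerin of the inner nuclear membrane. It stood at 14.7, 11.8 and 19.7 at 24 h and at 4.01, 3.45 and 2.89 at 10 D, a log2 difference of -2.14 (standard error 0.279, limma adjusted p = 0.370). Abra, a muscle protein that binds actin and activates the transcription factor SRF, stood at 84.7, 103 and 88.0 at 24 h and at 18.4, 16.9 and 25.2 at 10 D. Its 10 D pools lay within the C range of 17.2 to 24.6 or within 1 unit of it, and its log2 difference was -2.20 (standard error 0.328). Neither gene overlapped between 24 h and 10 D.

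Mt1, a metal-binding metallothionein, stood at 67.8, 114 and 58.1 at 24 h and at 16, 19.8 and 19.6 at 10 D, a log2 difference of -2.06 (standard error 0.301). The C pools stood between 6.63 and 7.60, below all 10 D pools. A dim second Mt1 probeset differed by 0.37. Cxcl12, a chemokine, stood at 20.7, 17.4 and 20.7 at 24 h and at 7.22, 6.45 and 5.03 at 10 D, a log2 difference of -1.66 (standard error 0.244). Its 10 D pools lay within or under the range of the C pools, which stood at 7.34, 6.54 and 6.68.

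The other named probesets on the lower side were those of Ung, a uracil-DNA glycosylase (log2 difference -1.73), Arntl, the clock factor BMAL1 (-1.65), and 2 transcripts of unknown role, 2010003K11Rik (-1.79) and 2410006H16Rik (-1.88). None of these overlapped between the groups. A brighter Arntl probeset differed by -0.53. In the plot of lower probesets by pool, all 10 D pools stand above all C pools for Cdkn1a, Emd and Mt1.

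**Figure D2:**
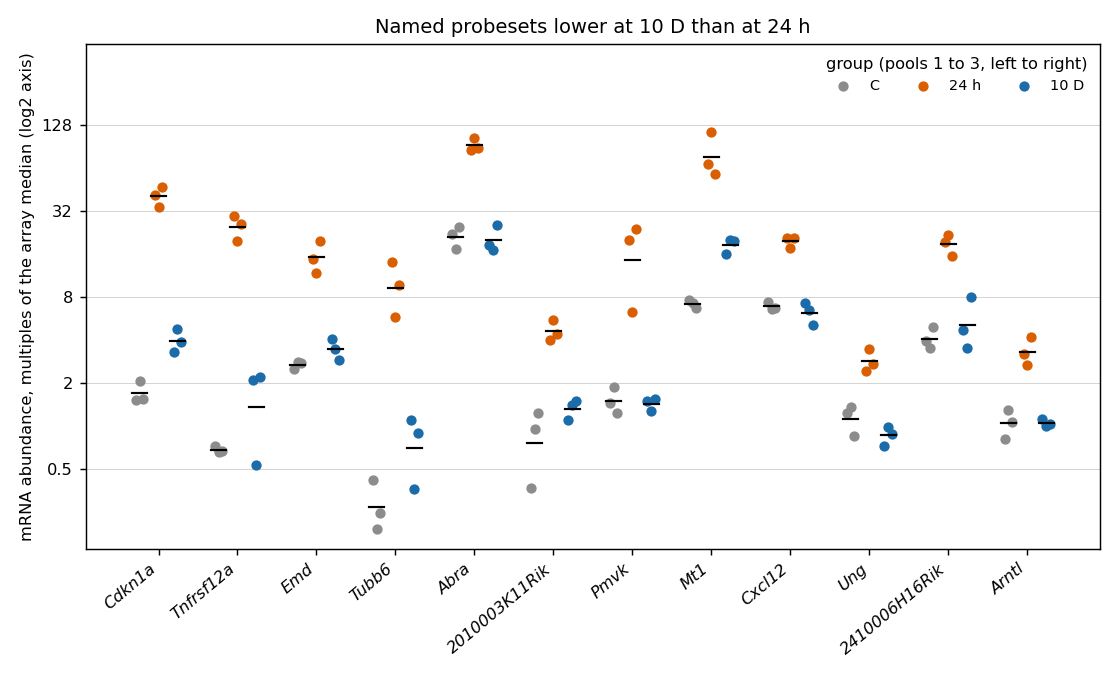
Level in each pool, in multiples of the array median on a log2 axis, of the 12 named probesets lower at 10 D, in C (grey), 24 h (orange) and 10 D (blue), with the geometric mean of each group as a bar. Each 24 h pool stands above each 10 D pool, as for Cdkn1a with 33.8 to 47.0 at 24 h against 3.29 to 4.76 at 10 D. The choice of these probesets by call or smallest p favours such separation.

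On the higher side the smallest p was that of Asb15, a muscle protein with ankyrin repeats and a SOCS box. It stood at 4.05, 6.32 and 5.07 at 24 h and at 22.3, 17.1 and 23.6 at 10 D. The groups were far apart, and the C pools, at 25.2, 26.0 and 28.9, stood above both. The log2 difference was 2.04 (standard error 0.258, limma adjusted p = 0.365), a 4.11-fold level at 10 D, and 2.34 without both pools 2 (adjusted p = 0.0350).

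Gadd45g, a stress-inducible activator of p38 and JNK kinases, stood at 1.64, 2.13 and 1.57 at 24 h and at 11.3, 5.59 and 9.75 at 10 D. All 10 D pools exceeded all 24 h pools, and they lay on both sides of the C pools, which stood at 7.11, 7.88 and 7.5. The log2 difference was 2.27 (standard error 0.323, limma adjusted p = 0.370) and 2.70 without both pools 2 (adjusted p = 0.0369).

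Ddit4, the inhibitor of mTORC1 also called REDD1, stood at 1.97, 2.22 and 1.23 at 24 h and at 6.41, 5.65 and 6.49 at 10 D, a log2 difference of 1.81 (standard error 0.288). Mfap3l, a membrane protein, stood at 4.33, 4.51 and 4.44 at 24 h and at 9.24, 9.79 and 12.5 at 10 D, a log2 difference of 1.23 (standard error 0.220). For both genes the 10 D pools stood above the C pools as well, which reached 5.25 for Ddit4 and 5.07 for Mfap3l. The 24 h pools of Mfap3l were under its C pools, the lowest of which stood at 5.04.

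The protein kinases among the 12 were Mylk2, the myosin light chain kinase of skeletal muscle, and Prkg1, a cGMP-dependent protein kinase. Mylk2 stood at 12.1, 11.6 and 15.0 at 24 h and at 29.2, 30.1 and 30.3 at 10 D, with C between 26.9 and 30.5. Prkg1 stood at 7.85, 6.73 and 6.79 at 24 h and at 19.2, 12.9 and 18.3 at 10 D, with C between 19.4 and 21.3. Each gave a log2 difference of 1.22, and the 10 D pools lay within the C range for Mylk2 and under it for Prkg1.

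The rest were Fn3k, fructosamine 3 kinase (log2 difference 2.39), Neu2, a sialidase (2.11), Inpp5d, the inositol phosphatase SHIP1 (1.92), Smox, spermine oxidase (1.77), Ift122, a protein of transport in cilia (1.62), and Mllt11 (1.35). None of these genes overlapped between the groups, as their choice by smallest p made likely. Fn3k, Neu2 and Inpp5d were dim at 24 h, with levels of 0.187 to 0.370, 0.322 to 0.749 and 0.319 to 0.534. At 10 D they stood at 1.15 to 2.08, 1.71 to 2.80 and 1.15 to 1.88. The filter used the mean over both groups, so a probeset dim at 24 h can pass it through its 10 D pools. Other probesets of Fn3k, Inpp5d and Mfap3l that were tested differed by -0.56, 0.19, and -0.24 and 0.17. For Smox a much brighter probeset stood at 16.1, 9.61 and 23.0 at 24 h and at 55.2, 28.8 and 55.1 at 10 D, a log2 difference of 1.54.

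**Figure D3:**
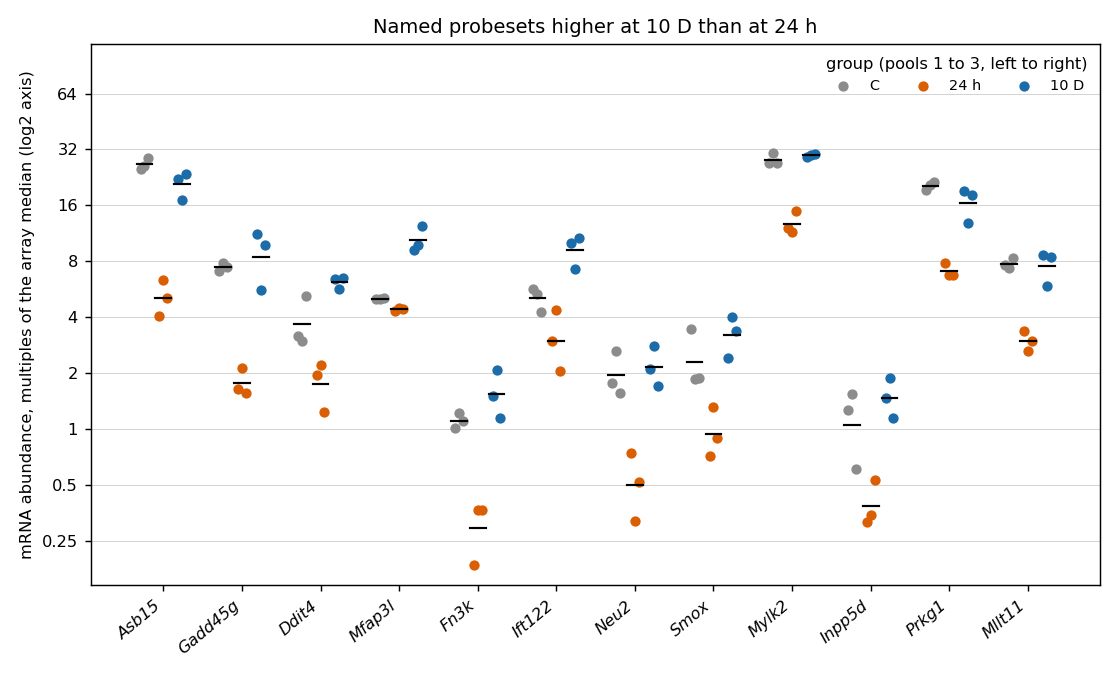
Level in each pool, in multiples of the array median on a log2 axis, of the 12 named probesets higher at 10 D, in C (grey), 24 h (orange) and 10 D (blue), with the geometric mean of each group as a bar. Each 10 D pool stands above each 24 h pool, as for Asb15 with 17.1 to 23.6 at 10 D against 4.05 to 6.32 at 24 h. The choice of these probesets by smallest p favours such separation.

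Gene lists were read with 1 probeset a gene, the brightest tested, over 15208 genes. Of these genes 7945 had a negative difference. Over all genes, 290 (1.91%) stood higher and 402 (2.64%) lower at 10 D at an unadjusted p under 0.05, the median log2 difference was -0.02, and all pools of 10 D stood above those of 24 h for 669 genes (4.4%) and below them for 890 (5.85%). Of 1153 list genes tested, 1 was called (Cdkn1a), 40 stood higher and 88 lower at an unadjusted p under 0.05, and the median was -0.09. The lists were compiled with results of these data known, and their counts are descriptions. Without pool 2 of 10 D, 1 member stood higher in each of the TWEAK receptor, stretch and actin lists described below with 0 on that side.

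Of the p21, CDK inhibitor, cyclin and Gadd45 list 22 of 24 genes were tested, and beside Cdkn1a 2 stood lower and 2 higher, with a median of 0.13. Ccnd1, cyclin D1, had levels of 6.24, 6.99 and 6.94 at 24 h and of 3.24, 3.57 and 4.28 at 10 D, a log2 difference of -0.87. Gadd45b stood at 2.67, 3.87 and 1.82 at 24 h and at 4.77, 5.39 and 5.37 at 10 D, a log2 difference of 0.96, so 2 Gadd45 genes stood higher while the cyclin and p21 stood lower. Ccnd3, cyclin D3, gave -1.35 by its brightest probeset and 0.55 and -0.62 by its other probesets. The higher count was 1 without pool 3 of 24 h or pool 3 of 10 D.

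In the list of the TWEAK receptor, NF-kappaB and injury genes, 26 of 34 were tested, 9 stood lower and 0 higher, and the median was -0.50. Lcn2, the secreted siderophore binder lipocalin 2, stood at 16, 3.77 and 14.8 at 24 h and at 0.903, 0.0804 and 0.848 at 10 D, a log2 difference of -4.61, which was -3.46 without pool 2 of 10 D and -4.14 without both pools 2. Lgals3, the lectin galectin 3, stood at 14, 21.4 and 14.7 at 24 h and at 2.83, 5.79 and 2.86 at 10 D, a log2 difference of -2.19. Both genes separated the groups, with pool 2 the lowest pool for Lcn2 and the highest for Lgals3.

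The others among the 9 beside Tnfrsf12a and Cxcl12 were Il6ra (log2 difference -1.77, another probeset 0.31), the neutrophil and stress protein gene S100a8 (-1.22), the protease inhibitor Timp1 (-1.0), Anxa2 (-0.79) and the transcription factor Stat3 (-0.66, other probesets 0.47, -0.12 and 0.84). The count was 5 without pool 1 of 24 h or pool 3 of 10 D and 8 without both pools 2.

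The summed level of neutrophil markers, over 6 of 10 listed genes, was 7.40, 11 and 8.82 at 24 h, 6.71, 8.10 and 5.996 at 10 D and 5.43 to 6.49 in C. Of these, S100a8 stood lower at an unadjusted p under 0.05, at 2.78, 2.07 and 2.05 at 24 h and 1.36, 1.47 and 0.468 at 10 D. The sums overlapped between 24 h and 10 D, and 5 of the 6 genes gave a difference below 0. For macrophages the sum over 9 of 11 genes was 22.8 to 33.2 at 24 h and 22.8 to 28.6 at 10 D, and Cd68 alone stood lower (log2 difference -1.0). The part of infiltrating cells in these differences was not tested, and in whole muscle fewer cells of a type and less RNA per cell cannot be told apart.

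Genes that respond to stretch in muscle stood lower in 8 of 20 tested (21 listed) and higher in 0, with a median of -0.79, the lowest of the 40 lists. Klhl30, a kelch-like protein of muscle, stood at 57.0, 77.9 and 74.0 at 24 h and at 19.1, 18.5 and 28.4 at 10 D, a log2 difference of -1.68. Klhl40, which stabilises thin filament proteins, stood at 84.3, 79.2 and 84.2 at 24 h and at 35.3, 30.9 and 45.5 at 10 D, a log2 difference of -1.17. The groups did not overlap. C ranged from 15.3 to 15.6 for Klhl30, under all 10 D pools, and from 32.8 to 34.9 for Klhl40, amid them.

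Ankrd1, an ankyrin repeat protein of the sarcomere and nucleus, stood at 12.8, 0.986 and 2.43 at 24 h and at 0.691, 0.438 and 0.50 at 10 D by its brightest probeset, a log2 difference of -2.56. Its relative Ankrd2 stood at 33.5, 6.25 and 27.5 at 24 h and at 6.68, 3.63 and 5.85 at 10 D, a log2 difference of -1.78. Csrp3, the muscle LIM protein, stood at 45.2, 13.6 and 33.0 at 24 h and at 10.6, 12.3 and 11 at 10 D, a log2 difference of -1.28. In all 3 genes pool 2 was the lowest 24 h pool, and for Ankrd2 it overlapped the 10 D pools.

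Without both pools 2, 9 members of the stretch list stood lower, and without pool 1 or pool 3 of 24 h the count was 4. The others among the 8 were Cryab, Hspb7 and Otud1. Several members are also in the lists of heat shock proteins, kelch-like proteins and slow fibre genes, so these counts share genes.

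Among heat shock proteins and chaperones 33 of 35 were tested, 6 stood lower and 0 higher, and the median was -0.41. Cryab, the small heat shock protein alphaB-crystallin, stood at 85.5, 97.6 and 86.1 at 24 h and at 43.2, 63.0 and 54.6 at 10 D, a log2 difference of -0.76. Hspb7 stood at 59.6, 30.3 and 72.5 at 24 h and at 25, 20.1 and 26.4 at 10 D, a log2 difference of -1.10. The chaperones Hsph1 (-0.72), Hspa9 (-0.70), Hsp90aa1 (-0.72) and Hspa8 (-0.86) made up the rest. The count was 2 without pool 3 of 24 h, 3 without pool 1 of 24 h and 11 without both pools 2.

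Of the actin cytoskeleton and SRF target list 43 of 47 were tested, 6 stood lower and 0 higher, and the median was -0.20. After Abra, the smallest p was that of Hopx, a homeodomain protein that binds SRF, at 8.24, 8.61 and 9.88 at 24 h and 4.44, 4.09 and 4.78 at 10 D, a log2 difference of -1.0. Flnc, the filamin of muscle, stood at 71.0, 82.6 and 94.3 at 24 h and at 22.5, 24.9 and 44.3 at 10 D, a log2 difference of -1.49. Tpm4 (-0.96), Actn4 (-0.77) and Raph1 (-0.72) also stood lower. Actb, the beta actin gene used as a reference in many assays, gave -0.38 with a 95% interval of -1.02 to 0.25. Vcl, vinculin, gave -0.20 with an interval of -0.70 to 0.29.

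Tubulin and microtubule genes stood lower in 3 of 21 tested (24 listed) and higher in 0, with a median of -0.28. Tubb5 stood at 12.7, 13.2 and 13.1 at 24 h and at 6.85, 5.96 and 7.57 at 10 D, a log2 difference of -0.94, and C stood at 5.19 to 5.67. Tubb2a (-0.96) and Tubb4b (-1.02) were the other members. Tubb6 entered the list by its brighter probeset and was not among the 3. The count was 1 without pool 1 of 24 h. In the nuclear envelope list of 19 tested genes, Emd and the nuclear pore gene Nup62 (-1.0) stood lower and Syne1, nesprin 1, stood higher (0.59). The lower count was 1 without pool 2 of 24 h or pool 1 of 10 D, and the higher count was 0 without pool 1 or 3 of 24 h or pool 2 or 3 of 10 D.

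The list of metallothioneins, glutathione and thioredoxin stress genes held members on both sides, with 4 of 31 lower and 3 higher and a median of -0.11. Mt2 stood at 34.7, 21.9 and 18.3 at 24 h and at 9.89, 6.50 and 11 at 10 D, a log2 difference of -1.43, in the same direction as its neighbour Mt1. Srxn1, sulfiredoxin, gave -1.46 and Gclc, which makes the first step of glutathione synthesis, -0.59. Mt3, whose highest level was 1.81, gave 2.29, and Gsta4, a glutathione transferase, gave 1.12.

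Ddit4, also in this list, has a paralog, Ddit4l, that likewise inhibits mTORC1 and lay on the other side. Ddit4l stood at 43.9, 41.2 and 53.6 at 24 h and at 32.6, 26.6 and 29.3 at 10 D by 1 probeset, a log2 difference of -0.64, and its brighter probeset gave -0.82. The groups did not overlap, and C stood at 21.7 to 26.3 for the former, under its 10 D pools. The count on the lower side of the list was 2 without pool 3 of 24 h, and that on the higher side was 5 without pool 2 of 10 D.

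The Asb family and muscle kelch-like list had the highest median of the 40, 0.32, with 4 of 25 genes higher (28 listed) and 2 lower. The 4 were Asb15, Asb10, Asb14 and Asb18, substrate adaptors of cullin ubiquitin ligases, and the 2 were Klhl30 and Klhl40. Asb10 stood at 5.24, 3.93 and 4.26 at 24 h and at 17.7, 8.23 and 11.8 at 10 D, a log2 difference of 1.43. Asb18 (0.93) and Asb14 (1.07) were likewise without overlap. Leaving out any 1 pool left 4 to 6 on the higher side and 2 on the lower.

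Contractile genes of fast fibres stood higher in 4 of 25 and lower in 0, with a median of 0.08, and the 4 are regulators more than filament proteins. Beside Mylk2 they were Stac3, a part of the calcium release apparatus, with 24 h pools at 21.8, 22.1 and 31.4 and 10 D pools at 52.1, 45.1 and 68.5, and Mylk4, a myosin light chain kinase, at 53.1, 47.3 and 75.3 at 24 h and 171, 129 and 242 at 10 D. The log2 differences were 1.14 and 1.61. The last was Myoz3, a Z-disc protein (0.77), whose groups overlapped, and the count was 2 without pool 2 of 24 h. Slow fibre genes stood lower in 3 of 19, Csrp3, Ankrd2 and Myom3 (-0.57), and the count was 0 without pool 1 or pool 3 of 24 h and 1 without pool 2 of 10 D. Acetylcholine receptor and denervation-responsive genes stood higher in 2 of 17, the embryonic and perinatal myosins Myh3 (1.66) and Myh8 (1.02), both at low levels of at most 1.64, and the count was 1 without pool 1 or pool 3 of either group.

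In the list of the growth hormone receptor, IGFs and binding proteins, 18 of 19 genes were tested, 3 stood higher and 1 lower, and the median was 0.06. Igf1, the growth factor that muscle makes for itself, stood at 23.2, 19.5 and 23.2 at 24 h and at 9.56, 8.03 and 8.71 at 10 D by the probeset with the smallest p, a log2 difference of -1.33. Its brightest probeset, which stands for it in the list, gave -1.11 and was not at an unadjusted p under 0.05 without pool 1 of 24 h or pool 2 or 3 of 10 D. The others gave -0.71 and -0.23. Igfbp5, the main IGF-binding protein of muscle, stood at 17.9, 14.6 and 10.8 at 24 h and at 31.9, 38.9 and 40.4 at 10 D, a log2 difference of 1.38.

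Ghr, the growth hormone receptor, stood at 20.4, 17.2 and 17.7 at 24 h and at 35.8, 26.8 and 33.2 at 10 D, a log2 difference of 0.78, and its kinase Jak2 gave 0.91. Igf1 thus stood lower at 10 D, and Ghr, Jak2 and Igfbp5 stood higher. The C pools stood at 8.34 to 12 for Igf1, overlapping its 10 D pools, and at 49.4 to 60.9 for Igfbp5, above its 10 D pools. Igf2r gave 0.03 with a 95% interval of -0.53 to 0.60.

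Of the beta-adrenergic and cAMP signalling list 36 of 43 were tested, with 2 higher and 2 lower and a median of -0.04. Akap6, an anchoring protein of protein kinase A, stood at 4.56, 4.20 and 6.48 at 24 h and at 16, 6.59 and 13.5 at 10 D, a log2 difference of 1.17. Adcy9, an adenylyl cyclase, gave 0.64, and the cyclase Adcy4 and the repressor and activator Crem gave -0.82 each. Crem had other probesets at -0.15 and -0.08. The higher count was 1 without pool 3 of 24 h or pool 2 or 3 of 10 D. The lower count was 0 without pool 3 of 24 h, 1 without pool 1 of 24 h or pool 3 of 10 D, and 4 without both pools 2.

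Of 28 cAMP-responsive and immediate early genes tested, 5 stood lower and 1 higher, with a median of -0.19. Nr4a3, an orphan nuclear receptor induced by cAMP, stood at 4.63, 1.30 and 3.92 at 24 h and at 0.544, 0.255 and 0.567 at 10 D, a log2 difference of -2.74. Ppp1r15a, a stress-induced phosphatase subunit also called GADD34, stood at 6.73, 3.36 and 5.21 at 24 h and at 2.09, 1.27 and 2.44 at 10 D, a log2 difference of -1.40. Nr4a2, Atf3 and Junb gave -1.46, -0.84 and -0.85, and Cebpd gave 1.36. Nr4a1, the relative of Nr4a3, gave 0.50 with a 95% interval of -0.03 to 1.03, and other probesets of Nr4a2 gave values from -0.54 to 0.36. Ppargc1a, the coactivator PGC-1alpha, gave -0.83 by its brightest probeset and -1.09 to -0.13 by 4 others. The count on the lower side was 3 without pool 1 of 24 h. That on the higher side was 0 without pool 2 or 3 of 24 h or pool 1 or 3 of 10 D and 2 without pool 2 of 10 D.

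Among ribosome biogenesis genes 71 of 73 were tested, 6 stood lower and 0 higher, and 59 of the 71 had a negative difference, with a median of -0.30. Tsr1, a factor of small subunit maturation, stood at 15.5, 23.8 and 16.7 at 24 h and at 8.05, 7.5 and 8.26 at 10 D, a log2 difference of -1.21. Gar1 (-0.96), Bysl (-0.89), Utp18 (-0.76), Polr1c (-0.65) and Utp14a (-0.54) completed the 6. Cytosolic ribosomal protein genes had a negative difference in 41 of 43 tested with a median of -0.17, and 0 were at an unadjusted p under 0.05. Over all genes tested, 7945 of 15208 had a negative difference. On MOE430A the brightest 100 probesets held 13.0 to 19.5% of the signal at 24 h and 11.4 to 20.1% at 10 D. How far small shifts of whole lists, here and in the respiratory chain list below, depend on the scaling was not tested. The ribosome biogenesis count was 2 without pool 3 of 10 D and 3 without pool 1 or pool 2 of 24 h.

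Translation factors stood lower in 3 of 51 and higher in 1. Eif5 gave -0.87, with other probesets between -0.63 and 0.74, and Eif2b4 gave -0.74. The helicase gene Eif4a1 gave -0.80, and a second probeset stood at 15.6, 14.4 and 17.5 at 24 h and at 10.7, 8.51 and 8.24 at 10 D. Eef2k, the kinase that inhibits elongation, stood higher (0.79). The lower count was 1 without pool 1 or 3 of 24 h or pool 2 or 3 of 10 D, and the higher count was 0 without pool 1 of 24 h and 4 without pool 2 of 10 D. Among tRNA synthetase and ATF4 target genes 2 of 37 stood lower, Atf4 itself (-0.90) and Eprs (-0.75), and Chac1, a target of ATF4, stood at 0.670, 1.46 and 1.32 at 24 h and at 5.06, 1.88 and 14.6 at 10 D, a log2 difference of 2.25. The lower count of this list was 0 without pool 3 of 10 D, 4 without pool 2 of 24 h and 5 without both pools 2.

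Amino acid transporters stood lower in 5 of 22 and higher in 0. Slc7a5, the light chain of the LAT1 transporter of large neutral amino acids, stood at 2.22, 3.20 and 2.85 at 24 h and at 0.879, 1.14 and 1.67 at 10 D, a log2 difference of -1.20, and C stood at 0.153 to 0.25. Slc7a1, a carrier of cationic amino acids, stood at 6.82, 7.85 and 5.90 at 24 h and at 3.75, 3.48 and 4.17 at 10 D, a log2 difference of -0.85. Slc38a2 (-0.63), Slc43a2 (-0.82) and Slc6a6 (-0.92) were the other members. The count was 3 without pool 1 or 2 of 24 h or pool 2 or 3 of 10 D, and the higher count was 2 without pool 2 of 10 D and 1 without pool 1 of 24 h. In the polyamine list of 13 genes tested Smox was the 1 member at an unadjusted p under 0.05, and Odc1, the first enzyme of polyamine synthesis, gave -0.38 by 1 probeset, with a 95% interval of -0.97 to 0.21.

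Fatty acid genes stood lower in 3 of 39 and higher in 1, with 31 of the 39 below 0 and a median of -0.28. Plin5, a lipid droplet coat protein of oxidative tissue, stood at 24.8, 55.9 and 29.4 at 24 h and at 4.78, 6.02 and 12.9 at 10 D, a log2 difference of -2.26. Acot2, a mitochondrial acyl-CoA thioesterase, stood at 14.9, 24.3 and 15.7 at 24 h and at 6.29, 3.77 and 7.52 at 10 D, a log2 difference of -1.67. Slc25a20 gave -0.71 and Gpam, of triglyceride synthesis, 0.74. The pools of Plin5 and Acot2 did not overlap, and pool 2 was the highest at 24 h in both. Without both pools 2 the lower count was 6. The higher count was 0 without pool 3 of 10 D and 2 without pool 2 of 10 D.

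Glycolysis, gluconeogenesis and glycogen genes stood higher in 2 of 40, Pfkfb3 (1.28) and the phosphorylase kinase subunit Phkg1 (1.10), and lower in 2, the lactate carrier Slc16a1 (-1.69) and Fbp2, the muscle fructose bisphosphatase. Fbp2 stood at 26.7, 24.5 and 29.6 at 24 h, at 18.3, 11.3 and 15.6 at 10 D and at 5.28 to 7.75 in C, a log2 difference of -0.86, so 10 D lay between the other groups. The higher count was 5 without pool 2 of 10 D, and the lower count was 1 without pool 1 or pool 3 of 24 h. Of respiratory chain and TCA cycle genes 0 of 60 stood at an unadjusted p under 0.05 in either direction, with 52 below 0 and a median of -0.17, and of proteasome subunits 0 of 37, with a median of -0.10.

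Among myogenic and Mef2 factors 2 of 32 stood lower and 0 higher. Myog, the differentiation factor myogenin, stood at 9.11, 10.1 and 6.53 at 24 h and at 1.31, 2.98 and 2.58 at 10 D, a log2 difference of -1.97, and Rbm20, a splicing factor of titin, gave -0.94. For Mef2c, 1 probeset gave 0.64 and the brightest one 0.46. The lower count was 5 without pool 2 of 24 h or without both pools 2 and 1 without pool 1 or 3 of 24 h or pool 2 of 10 D, and the higher count was 1 without pool 2 of 10 D. In the myostatin, activin and BMP list Acvr2b (1.14) and Acvr1b (0.73), receptors of activin and myostatin, stood higher and Id1 (-1.04) and Id3 (-0.84), targets of BMP signals, stood lower, of 29 tested. The higher count was 1 without pool 2 of 24 h or pool 3 of 10 D, and the lower count was 1 without pool 1 or 3 of 24 h or pool 3 of 10 D.

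Collagen and matrix genes stood lower in 4 of 46 and higher in 0. Col4a1, a chain of basement membrane collagen, stood at 44.6, 39.4 and 39.8 at 24 h and at 21.6, 18.1 and 16.9 at 10 D, a log2 difference of -1.13, and its partner Col4a2 gave -0.79. Timp1 and Eln (-0.72) were the other members, and the count was 1 without pool 1 of 24 h or pool 3 of 10 D, while 2 stood higher without pool 2 of 10 D. Endothelial markers had a summed level over 10 of 10 genes of 38.2 to 47.1 at 24 h, 30.02 to 35.8 at 10 D and 34.2 to 38.5 in C, without overlap of 24 h and 10 D, and 9 of the 10 differences were below 0. Fibroblast markers, over 10 of 10 genes, summed to 144 to 244 at 24 h, 178 to 213 at 10 D and 231 to 304 in C, with 9 of the 10 differences above 0, a median of 0.18 and 0 at an unadjusted p under 0.05. Kdr, the VEGF receptor 2, stood at 9.54, 7.94 and 7.51 at 24 h and at 5.19, 4.45 and 3.94 at 10 D. The part of endothelial cells and fibroblasts in the collagen values was not tested.

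Of 21 clock genes tested 2 stood lower, Clock (-0.86) and Cry1 (-0.83), and 1 higher, Tef (0.52), with a median of 0.20. The lower count was 1 without pool 3 of 10 D, and the higher count was 0 without pool 1 or 3 of 24 h or pool 1 or 2 of 10 D. The lists of mitochondrial regulators (1 of 19 lower, Ppargc1a), proliferation genes (1 of 17 on each side, Rrm2 and Mcm2), autophagy (1 of 35 lower, Atg4b), calcium handling and NFAT (2 of 28 higher, Slc8a3 and Rcan2), insulin and mTOR (1 of 28 higher, Pik3ip1), MAP kinases (1 of 23 higher, Map2k6), angiogenesis (1 of 24 lower, Kdr) and atrophy ligases (2 of 28 lower, Rnf128 and Fbxo30) held few members at an unadjusted p under 0.05. Without pool 2 of 10 D the higher count was 5 for insulin and mTOR, 3 for MAP kinases, 3 for atrophy ligases, 2 for mitochondrial regulators and 1 for angiogenesis. The calcium handling count was 0 without pool 1 or 2 of 24 h or pool 1 or 3 of 10 D. The lower count of angiogenesis was 3 without pool 2 of 24 h or pool 1 of 10 D, and that of atrophy ligases was 1 without pool 2 or 3 of 24 h or pool 3 of 10 D. The counts of mitochondrial regulators, proliferation and autophagy otherwise lay between 0 and 2 on either side without any 1 pool.

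**Figure D4:**
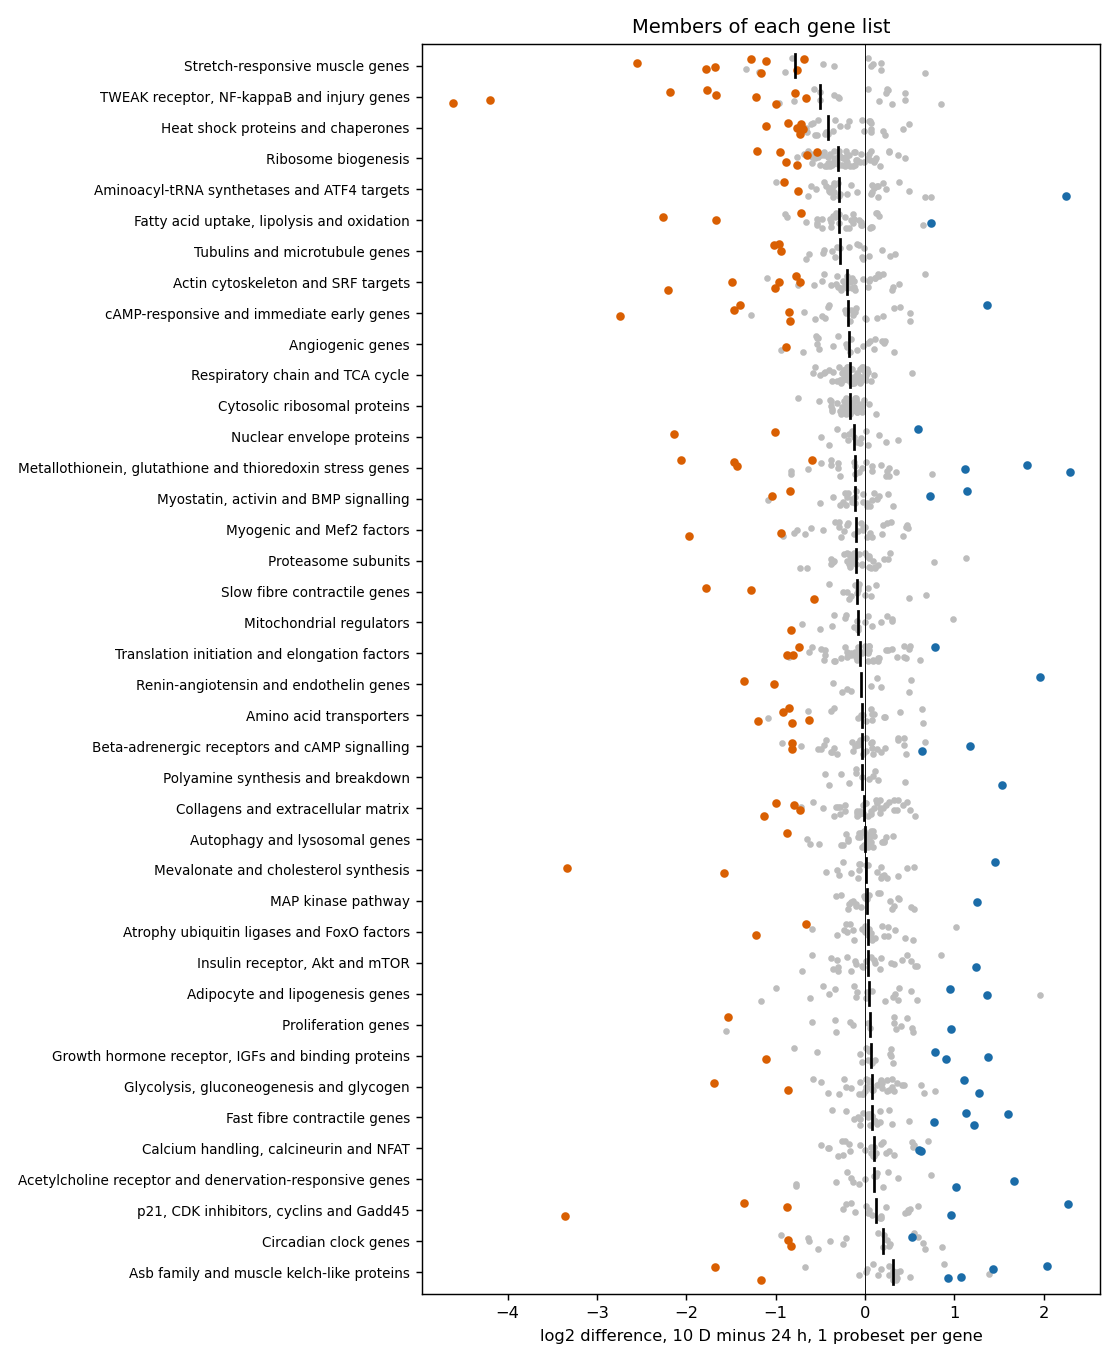
Log2 difference of 10 D and 24 h of each tested member of the 40 gene lists (points, 1 probeset per gene, coloured where the unadjusted p is under 0.05, orange lower and blue higher) with the list median as a bar, lists in order of the median. The stretch-responsive list has the lowest median, -0.79, and the Asb and kelch-like list the highest, 0.32.

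The study's own tables listed 77 probesets for their differences among the 3 groups, chosen on these samples, so they are no independent evidence. Of these 76 were tested, 23 stood higher and 33 lower at 10 D at an unadjusted p under 0.05, and C lay nearer to 10 D than to 24 h for 73 (96.1%). Some probesets of the tables did not differ at that p. Vcl averaged 13.4 in C, against 28.2 at 24 h and 24.5 at 10 D. Panx1, a pannexin channel, had 0.383, 1.2 and 1.46 (log2 difference 0.29, 95% interval -0.28 to 0.86). Atp6v0e had 3.16, 5.72 and 5.01 (-0.19, -0.71 to 0.32), and the factor Yy1 by 1 probeset had 3.92, 5.66 and 5.11 (-0.15, -0.69 to 0.40). The intervals leave room for differences of either sign.

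Among markers of other cells, those of lymphocytes and skin had members that stood higher at 10 D at an unadjusted p under 0.05. The lymphocyte sum over 7 of 11 genes was 10.3, 10.3 and 8.87 at 24 h, 20.2, 13.8 and 15.2 at 10 D and 13.3 to 15.9 in C, with the B cell genes Ighm (1.41, other probesets from -0.51 to 0.79) and Ms4a1 (0.94) at an unadjusted p under 0.05. The skin sum over 7 of 10 genes was 5.02, 7.28 and 4.16 at 24 h and 9.71, 12.1 and 5.99 at 10 D, against 6.12, 10.8 and 24.3 in C, with Krt5 (2.25) and Dsp (1.73) at an unadjusted p under 0.05. The groups overlapped for skin, where the highest pool was a C pool, and 24 h and 10 D did not overlap for lymphocytes. Of 6 Schwann cell and nerve markers 5 had a difference above 0 (median 0.28), and 0 stood at an unadjusted p under 0.05. The part of these cells in the values of other genes was not tested.

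**Figure D5:**
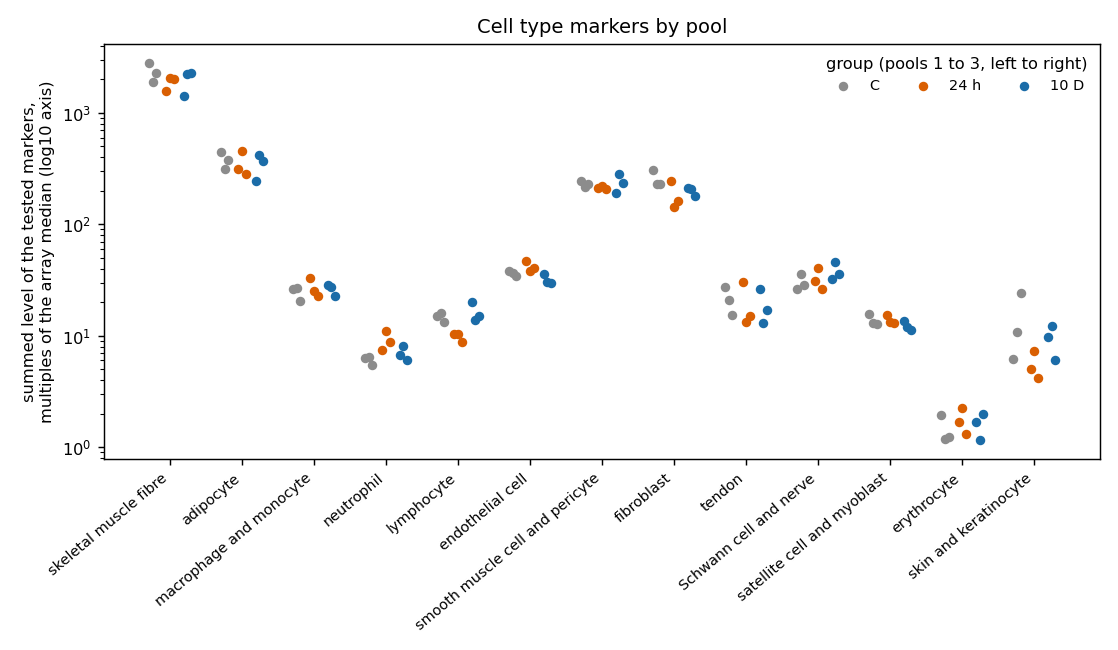
Summed level of the tested markers of 13 cell types in each pool, in multiples of the array median on a log10 axis, in C (grey), 24 h (orange) and 10 D (blue). Muscle fibre markers lie between 1407 and 2817, and lymphocyte markers stand at 13.8 to 20.2 at 10 D against 8.87 to 10.3 at 24 h.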

How the data were processed

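RNA of 3 mice was pooled per sample, labelled and hybridised to the Affymetrix chips MOE430A and MOE430B, and the authors quantified the images with Microarray Suite. The deposited values are signal intensities, 1 per probeset and array, not yet scaled between arrays. Of 22626 and 22511 probesets the MOE430B copies of 100 found on both chips were left out. Each of the 18 signals of 0 was set to 0.05, each signal was divided by its array median, and log2 was taken. Probesets whose mean over the 6 compared pools, without the C pools, lay under the 25th percentile of their chip were left out, which left 33752. Each chip was fitted separately with limma 3.58.1 in R 4.3.3 (trended, shared variance, 4 residual degrees of freedom before sharing), p-values were adjusted together by Benjamini and Hochberg, and the threshold of 0.1 is the false discovery rate of the study. With 3 pools a side an exact permutation test cannot go below 0.1. The fit was tested on simulated data.

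Gene names came from the platform annotation: 34945 probesets had 1 symbol, 932 had several and 9160 had none listed, and those without 1 symbol were not named. The rule for named genes first took called probesets with 1 symbol and no overlap of the groups, up to 12 in each direction. Each direction was then filled to 12 by the smallest p among probesets with 1 symbol, whether or not the groups overlapped. The rule also took the 2 smallest p of each list by the brightest tested probeset and the probesets of the study's tables. The gene Actb and the brightest markers completed the named genes, and the text prints part of them. List members at an unadjusted p under 0.05 beyond these were added after their values were seen. Members and lists were chosen with earlier results of these data known. Pools are different mice, and the labels give no batch. Alternatives were quantile normalization, the 75th percentile as scale, no filter and the 50th percentile, 10 added to the signal, the C pools in the fit, no trend, the study's linear model, adjustment within each chip, the pool number as a block, and leaving out each pool. Leaving out pool 2 of both groups was chosen after seeing the data. Columns with no sample numbered 0.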

Additional observations from a re-analysis of the deposited data

How the results depend on the processing

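Cdkn1a was the 1 probeset called, and over 17 settings its log2 difference ran from -3.63 to -3.24 with an adjusted p of 0.00132 to 0.780, under 0.1 in 12 of them. The number called was 2 with quantile normalization (Cdkn1a and Asb15), 17 with the C pools in the fit, 0 without the intensity trend, 18 with the study's linear model and unshared variance, and 12 without pool 2 of both groups. It ranged from 0 to 2 when 1 pool was left out, being 0 without pool 1 or pool 3 of either group. The cause was not tested. The 1363 probesets at an unadjusted p under 0.05 became 2225 without both pools 2 and 946 to 1960 without 1 pool.

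The pool numbers do not pair the groups by design, since mice were put in pools at random. Deviations of pools with the same number correlated at 0.238, 0.357 and 0.0430 over both chips for pools 1, 2 and 3. With the pool number as a replicate block 44 probesets were called, 2425 stood at an unadjusted p under 0.05, and list members at that p numbered 237 against 128. Of the 6 pools 5 correlated best with the pool of their own number. The deviations sum to 0 within each group, so these matches are not independent, and pool 2 stood apart in both groups. No pairing is read from them.

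Of 1360 list counts recomputed by direction 1072 were within 1.5 times of the reported count. Of 2624 recomputed differences of named genes 2621 kept their direction. The 3 reversed were those of Igf2r, 0.03 with all pools, which ranged from -0.0851 to 0.137 when 1 pool was left out, was below 0 without pool 2 of 24 h and without pool 1 of 10 D, and was -0.0549 without both pools 2.

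The number of arrays limits the precision. The median standard error of a log2 difference was 0.387 over all tested probesets.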

Other observations

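Of 23 mevalonate and cholesterol synthesis genes tested, the kinase genes Pmvk and Mvk stood lower at 10 D (log2 differences -3.33 and -1.57) and Fdft1, the gene of squalene synthase, stood higher (1.45), all at an unadjusted p under 0.05. Of 22 adipocyte and lipogenesis genes, Fasn, fatty acid synthase (1.37), and Thrsp (0.95) stood higher and 0 lower. Of 12 renin-angiotensin and endothelin genes, Agt, angiotensinogen (-1.35), and Edn1, endothelin 1 (-1.02), stood lower, and Agtrap, a protein that binds the angiotensin receptor (1.96), stood higher. None of these was called. Without 1 pool the lower count ran from 1 to 2 for mevalonate genes, being 1 without pool 1 or 3 of 24 h or pool 1 of 10 D, and the higher count from 1 to 2 for mevalonate and renin-angiotensin genes, being 2 without pool 2 of either group for the former and without pool 1 or 2 of 10 D for the latter. Of adipocyte genes up to 2 stood lower without 1 pool.

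The 100 probesets present on both chips compare the chips pool by pool. The deviations of a pool from the mean of all 9 pools on one chip correlated with those on the other at 0.767 for pool 2 of 24 h, 0.631 for pool 1 of 10 D, 0.609 for pool 2 of 10 D and 0.0869 to 0.403 for the other pools. For 4 of the 9 pools the best match on the other chip was the same pool, and for 5, pool 2 of 10 D among them, it was another pool.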
